A study of Mus musculus with 4 samples.

Results

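Regulators of G-protein signalling (RGS proteins) were followed across the cell types of the mouse ovary through 7 genes, Rgs1, Rgs2, Rgs4, Rgs5, Rgs6, Rgs7 and Rgs13, out of 32285 genes listed in the count matrices. These 7 were chosen by their measured UMI levels in the same libraries, since each was high in a different class of cells or shared a class with 1 other, so their levels by class are given as a description without a test. Ovaries came from 8-week-old females of 1 litter. The Fosl2F/F group (Fosl2flox/flox, no Cre, 2 libraries) carried the floxed allele of the AP-1 transcription factor gene Fosl2 on both chromosomes, and the Fosl2cKO group (2 libraries) carried the same alleles together with Cyp19a1-Cre, in which Cre is driven from the gene for aromatase, an enzyme of granulosa cells (GCs). By this design Cre was aimed at the GC lineage, and whether it acted in other cells was not tested. Both groups shared the floxed alleles. Each library was made with 10x Genomics 3′ chemistry, and the group size described for this experiment, 2 per group, equals the number of libraries. No label ties a library to a single animal, so p-values are read as covering the spread between libraries.

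RGS proteins bind the active, GTP-bound α subunits of heterotrimeric G proteins and speed up the hydrolysis of GTP, which ends signalling from G-protein-coupled receptors. Rgs1, Rgs2, Rgs4, Rgs5 and Rgs13 encode small proteins of the R4 subfamily that hold little more than the RGS domain. Rgs6 and Rgs7 encode larger proteins of the R7 subfamily, which are stable in a complex with the β subunit encoded by Gnb5. In the ovary, receptors for FSH and LH in granulosa, theca and luteal cells act through such G proteins, as do chemokine receptors of leukocytes and receptors for vasoactive signals in the vessel wall.

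The members occupy 2 chromosomes (GRCm38, GENCODE annotation). Rgs2 (chr1:143999338-144004161, minus strand), Rgs13 (chr1:144138654-144177372, minus strand) and Rgs1 (chr1:144242296-144249242, minus strand) stand in a row, with no other protein-coding gene between them. Rgs5 (chr1:169655501-169695813, plus strand) and Rgs4 (chr1:169741477-169747642, minus strand) are neighbours that point towards each other across 45664 bases. Rgs7 (chr1:175059087-175492500, minus strand) and Rgs6 (chr12:82588292-83162056, plus strand) are long genes of 433414 and 573765 bases, so that a count that includes reads from introns would raise them more than the short genes, and whether introns were counted is not given in the sources used here. Rgs6 overlaps the genes 1700085C21Rik and Gm29530 on the opposite strand, which held only 3 and 12 UMIs in all 4 libraries against 7244 of Rgs6.

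Promoters of 2 neighbouring pairs are shown because Rgs2 and Rgs13 shared granulosa cells, and Rgs5 and Rgs4 shared pericyte-like cells (below, by class). Each runs from 250 bases before to 50 bases after the start of the gene, 5′ to 3′ on the strand of the gene (RefSeq, GRCm38.p6). They lie at chr1:144004100-144004399 (minus strand), chr1:144177323-144177622 (minus strand), chr1:169655251-169655550 (plus strand) and chr1:169747593-169747892 (minus strand), in the order printed.
Rgs2: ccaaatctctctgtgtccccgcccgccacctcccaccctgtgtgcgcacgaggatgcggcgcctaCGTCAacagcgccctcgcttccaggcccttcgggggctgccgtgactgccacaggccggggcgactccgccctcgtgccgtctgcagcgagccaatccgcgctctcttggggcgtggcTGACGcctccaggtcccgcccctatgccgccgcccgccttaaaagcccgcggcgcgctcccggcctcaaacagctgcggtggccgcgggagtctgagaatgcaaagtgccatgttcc
Rgs13: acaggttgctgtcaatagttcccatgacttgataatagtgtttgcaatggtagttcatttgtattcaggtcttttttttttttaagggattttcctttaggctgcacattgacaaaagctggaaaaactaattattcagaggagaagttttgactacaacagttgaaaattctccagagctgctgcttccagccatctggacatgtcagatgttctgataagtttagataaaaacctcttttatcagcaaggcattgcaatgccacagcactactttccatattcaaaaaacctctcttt
Rgs5: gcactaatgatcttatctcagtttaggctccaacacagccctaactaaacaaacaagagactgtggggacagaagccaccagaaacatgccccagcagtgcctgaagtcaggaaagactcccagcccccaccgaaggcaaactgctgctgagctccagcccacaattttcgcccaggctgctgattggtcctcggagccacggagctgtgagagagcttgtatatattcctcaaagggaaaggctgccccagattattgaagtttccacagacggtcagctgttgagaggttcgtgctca
Rgs4: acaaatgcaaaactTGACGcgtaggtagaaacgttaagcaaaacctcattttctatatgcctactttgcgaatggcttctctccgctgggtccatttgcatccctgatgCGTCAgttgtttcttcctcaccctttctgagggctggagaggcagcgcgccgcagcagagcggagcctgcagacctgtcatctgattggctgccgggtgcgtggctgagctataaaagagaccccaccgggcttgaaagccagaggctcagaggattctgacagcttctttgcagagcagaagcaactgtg
Capitals mark the half-site of the cAMP response element, TGACG, on either strand. Rgs2 and Rgs4 each held 2 such matches, and Rgs13 and Rgs5 held none. Of 32851 promoters of the same length, 20.8% held at least 1. The AP-1 letters TGAGTCA, searched on both strands because FOSL2 is a subunit of AP-1, were in none of the 6 member windows matched (Rgs6 and Rgs7 included, with the RefSeq window of Rgs6 inside the GENCODE gene, downstream of the start given above) and in 5.20% of all promoters. The full response element TGACGTCA, which contains the half-site, was in none of the 6 and in 1.79% of all. The window of Rgs13 was poor in G and C (36.7%), whereas that of Rgs2 was rich (70.0%).

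After filtering, 6760 to 19575 cells per library were kept, with a median of 3655 UMIs per cell in Fosl2F/F 2 and 11177 to 12465 in the other libraries, and 10 to 38 cell barcodes were shared by any pair of libraries. The cells were clustered without any Rgs gene and fell into 34 classes, of which 29 had at least 10 cells in every library. Fosl2 itself stood at 161 and 167 CPM (a gene's UMIs per 1000000 UMIs of a class in a library) in the GC-like cells of the Fosl2F/F libraries and at 167 and 115 CPM in those of the libraries labelled Fosl2cKO. The level in Fosl2cKO 1 was not below the Fosl2F/F range. A library labelled Fosl2cKO was the highest in mural-like GCs (279 and 269 against 362 and 185 CPM) and in Hsd17b7 Runx2 cells (103 and 190 against 199 and 306 CPM), and whether these 3′ reads fall inside the floxed exons was not tested. Another gene, Plb1 (chosen after its values were seen), set both libraries labelled Fosl2cKO apart from both Fosl2F/F libraries, with a log2 fold change of 10.77 over all cells (SE 0.31, adjusted p = 0.000281 in edgeR). Classes outside the GC-like cells also had higher Plb1 in edgeR, for example Abcb1b Hao2 (8.17, adjusted p = 3.32e-05), endothelial-like (7.65, adjusted p = 0.0294) and stromal-like cells (6.13, adjusted p = 0.00727). The source of Plb1 there was not tested. In the Hsd17b7 Runx2 class, named after its leading genes, the 69 cells of Fosl2F/F 1 stood apart from those of the other libraries, and the levels and edgeR folds of Rgs6 and Rgs7 in that class are also given without this library.

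The 7 genes differed in how many classes held their UMIs. Rgs2 had a mean of at least 20 CPM in all 29 classes and Rgs1 in 7, whereas Rgs6 passed that level in 6, Rgs13 in 4, Rgs7 in 3, and Rgs4 and Rgs5 in 2 each. With 1 library left out these counts ran from 2 to 5 for Rgs5 (5 without Fosl2F/F 1 or Fosl2cKO 1), from 1 to 2 for Rgs4 (1 without Fosl2F/F 1) and from 4 to 6 for Rgs13 (6 without Fosl2cKO 1). A count above this level is not a count of expressing classes, since UMIs of free RNA were not separated here. In endothelial-like cells, where Rgs2 was lowest, the 8 granulosa markers summed to 226 to 567 CPM, against 6574 to 7795 CPM in growing follicle-like GCs, and their part in the low levels of Rgs2 was not tested. Over the 29 classes, the levels of Rgs4 and Rgs5 ran most alike (Pearson r = 0.77 of log2(mean CPM + 1)), followed by Rgs2 and Rgs13 (r = 0.47), and the classes share their 4 libraries. Levels of the members were compared between classes for 1 gene at a time, since UMIs from 3′ reads depend on how well each transcript is captured. Where different genes are set side by side within a class (below), their order is one of UMIs and may also reflect capture.

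**Figure D1:**
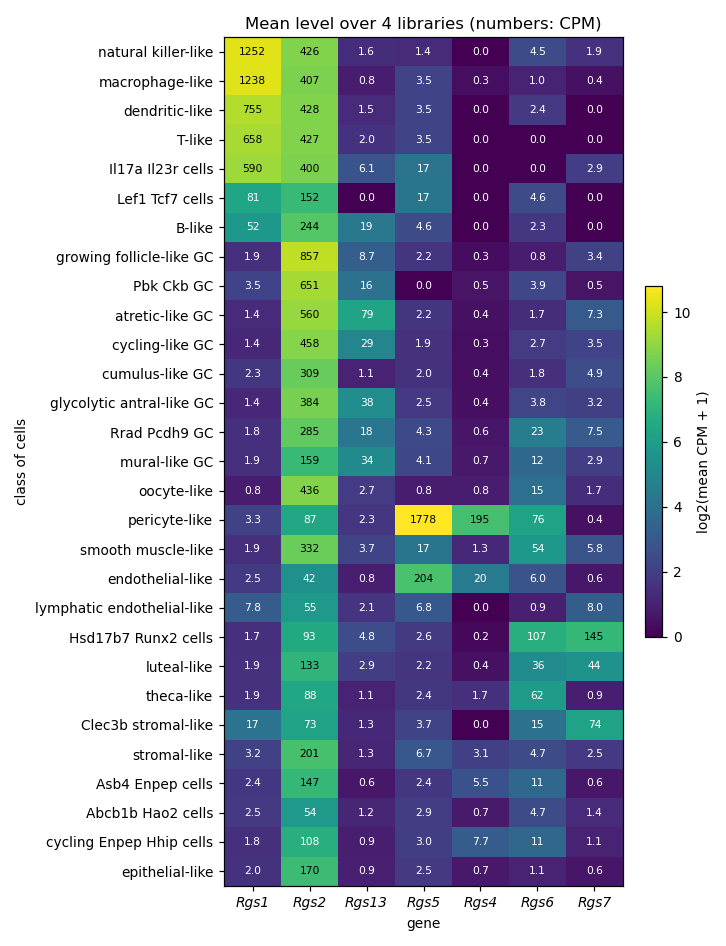
Mean level (CPM, mean of 4 libraries) of the 7 genes (columns) in the 29 classes of cells (rows), with colour on a log2(mean CPM + 1) scale. Rgs1 is high in leukocyte classes (1252 CPM in natural killer-like cells), Rgs5 and Rgs4 in pericyte-like cells (1778 and 195 CPM), Rgs7 in Hsd17b7 Runx2 cells (145 CPM), and Rgs2 is present in every row. Rgs6 also has its highest mean in Hsd17b7 Runx2 cells (107 CPM), which falls to 30.2 CPM without Fosl2cKO 2.

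Rgs1, which restrains chemokine receptor signalling in leukocytes, had its highest means in immune cell classes. It stood in natural killer-like cells at 1587 CPM in Fosl2F/F 1, 1238 in Fosl2F/F 2, 1263 in Fosl2cKO 1 and 920 in Fosl2cKO 2 (mean 1252 ± 272, SD, n = 4), from 240 to 449 UMIs per library. Macrophage-like cells followed at 1557, 1062, 1081 and 1252 CPM in the same order of libraries, and the ranges of both classes overlapped almost whole. Macrophage-like cells had the higher mean without Fosl2F/F 2 and without Fosl2cKO 1. Dendritic-like cells (755 ± 242), T-like cells (658 ± 155) and Il17a Il23r cells (590 ± 171) came next and overlapped one another. Below them stood the lymphoid class led by Lef1 and Tcf7 (80.6 ± 86.0, on 1 to 6 UMIs per library), whose mean was carried by Fosl2F/F 2 (208 CPM against 19.2 to 55.3 CPM in the others). B-like cells stood at 52.5 ± 60.7 CPM, on 0 to 6 UMIs per library, again with Fosl2F/F 2 highest (137 CPM against 0 to 54.9 CPM). All 6 natural killer markers on the list used for naming were above 20 CPM in the natural killer-like class.

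By share of UMIs, macrophage-like cells held most of Rgs1. Macrophage-like cells were 1.39 to 3.46% of the cells of a library and held 53.6 to 67.9% of all Rgs1 UMIs, against 8.70 to 12.3% in natural killer-like cells. With every cell thinned to 2000 UMIs, Rgs1 was detected in 60.5 to 68.8% of macrophage-like cells and in 0 to 0.870% of cumulus-like GCs, follicular cells that should lack it (66.3 to 84.1% and 1.14 to 3.18% before thinning, with median depths of 2420 to 10560 and 3330 to 12590 UMIs). Thinning left out 503, 3970, 289 and 298 cells in Fosl2F/F 1 and 2 and Fosl2cKO 1 and 2. The genes whose level over the 29 classes ran most like Rgs1 among 12971 genes compared were the leukocyte integrin subunit Itgb2 (r = 0.99), Gpr65 (r = 0.98) and the lysosomal gene Laptm5 (r = 0.97).

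Rgs2, which acts mainly on Gq and is induced by cAMP in many cells, had its highest mean in growing follicle-like GCs. The level was 1100 CPM in Fosl2F/F 1, 632 in Fosl2F/F 2, 607 in Fosl2cKO 1 and 1090 in Fosl2cKO 2 (mean 857 ± 274, n = 4). Fosl2F/F 1 and Fosl2cKO 2 were both high and the other 2 libraries both low, so the groups overlapped. Pbk Ckb GCs (651 ± 216), atretic-like GCs (560 ± 232) and cycling-like GCs (458 ± 144) followed, and each of these neighbours in the order overlapped the next. Rgs2 was not confined to GCs. Oocyte-like cells had the highest mean outside them (436 ± 99.0 CPM), on 24 to 107 Rgs2 UMIs per library. Dendritic-like (428 CPM), T-like (427 CPM), natural killer-like (426 CPM), macrophage-like (407 CPM) and Il17a Il23r cells (400 CPM) had means above that of glycolytic antral-like GCs (384 CPM). Mural-like GCs were the GC class with the least Rgs2 (159 CPM), and endothelial-like cells were lowest of all 29 classes (41.5 CPM). GC-like cells, at 32.6 to 56.1% of the cells, held 61.0 to 85.0% of the Rgs2 UMIs. After thinning, 62.4 to 83.5% of growing follicle-like GCs and 5.49 to 12.5% of endothelial-like cells had a Rgs2 UMI (85.8 to 99.4% and 20.1 to 27.8% before). The genes most like it over the classes were Tex14 (r = 0.84), Bcap29 (r = 0.75) and Psd4 (r = 0.73).

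Rgs13, known from B cells and mast cells, was here a gene of granulosa cells. In atretic-like GCs it stood at 115 CPM in Fosl2F/F 1, 67.7 in Fosl2F/F 2, 25.3 in Fosl2cKO 1 and 107 in Fosl2cKO 2 (mean 78.8 ± 41.3, n = 4), on 154 to 1383 UMIs. The order of the libraries was that of Rgs2, with Fosl2F/F 1 and Fosl2cKO 2 above the other 2. Glycolytic antral-like GCs (37.8 ± 35.0), mural-like GCs (33.5 ± 28.3) and cycling-like GCs (29.1 ± 22.8) came next, with overlapping ranges. These means rested on Fosl2F/F 1, without which they were 21.3, 21.4 and 19.6 CPM. At the other end, cumulus-like GCs were near the floor at 1.12 CPM. GC-like cells held 93.1 to 97.8% of all Rgs13 UMIs, the largest such share for GC-like cells among the 7 genes in these libraries. After thinning, 5.52 to 23.2% of atretic-like GCs and 0 to 0.238% of cumulus-like GCs had a Rgs13 UMI (23.3 to 55.7% and 0.285 to 3.46% before). B-like cells stood at 0, 34.2, 14.3 and 27.4 CPM in Fosl2F/F 1, Fosl2F/F 2, Fosl2cKO 1 and Fosl2cKO 2 (mean 18.99 ± 15.1), above the means of 4 GC classes, on only 0 to 3 Rgs13 UMIs per library. The FSH receptor gene Fshr (r = 0.86), Nap1l5 (r = 0.86) and the inhibin subunit gene Inhbb (r = 0.85) ran most like Rgs13 over the classes.

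**Figure D2:**
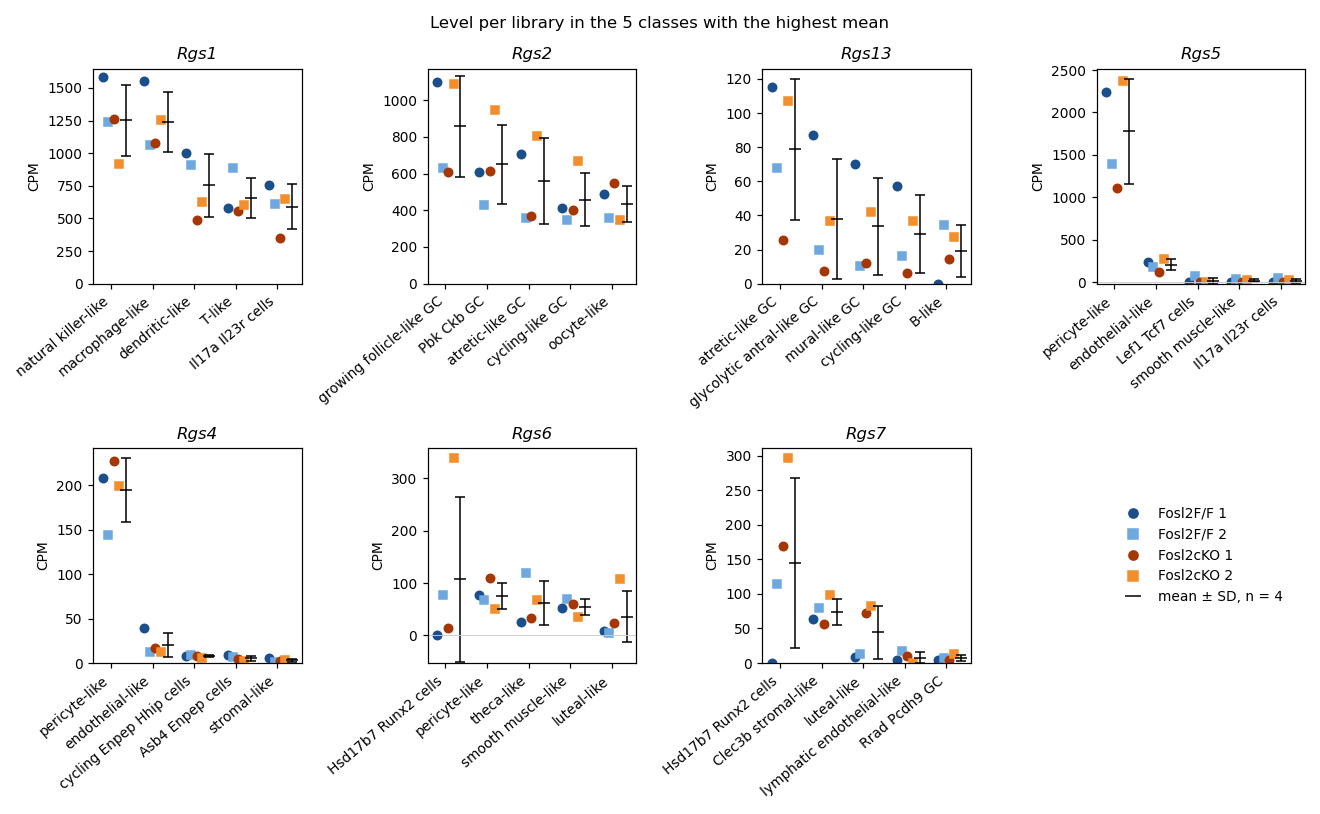
Level (CPM) of each gene in the 5 classes where its mean is highest, with 1 point per library and the mean ± SD (n = 4) beside them. The library ranges of Rgs5 and of Rgs4 in pericyte-like cells lie above those of every other class, whereas the 2 highest classes of Rgs1, Rgs2, Rgs6, Rgs7 and Rgs13 overlap.

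Across GC classes, Rgs13 kept 1 order of the libraries, and Rgs2 did so in part. Rgs13 was higher in both Fosl2F/F 1 and Fosl2cKO 2 than in both other libraries in all 6 GC classes where it was tested, and Rgs2 in 5 of 8. In the other 3 classes Rgs2 was higher in both libraries labelled Fosl2cKO than in both Fosl2F/F libraries, at 136 and 146 against 153 and 202 CPM in mural-like GCs, 608 and 431 against 615 and 949 CPM in Pbk Ckb GCs, and 306 and 318 against 390 and 521 CPM in glycolytic antral-like GCs, and none of the 3 passed edgeR's test. Both libraries labelled Fosl2cKO stood above in 20.2% of all gene and class pairs. The first order, Fosl2F/F 1 and Fosl2cKO 2 above the rest, held for 16.3% of all gene and GC class pairs, was picked out after the values were seen, and the classes share the same libraries. Rrad Pcdh9 and Pbk Ckb GCs are among the 8 classes and carry no marker name. All 8 granulosa markers were above 20 CPM in both (3672 to 11923 CPM in sum), while among GC-like cells alone they scored highest for the stromal list (164 to 307 CPM) and the oocyte list (17.97 to 326 CPM), respectively. Without these 2 classes the first order held for Rgs13 in 5 of 5 and for Rgs2 in 4 of 6, against 16.7% of pairs. The summed level of the 5 atretic GC markers in atretic-like GCs followed the same order (2985, 1620, 1545 and 1847 CPM in Fosl2F/F 1, Fosl2F/F 2, Fosl2cKO 1 and Fosl2cKO 2), all 5 were above 20 CPM, and their part in the result was not tested. In single atretic-like GCs of Fosl2cKO 2, a Rgs13 UMI was found in 54.5% of cells with a Rgs2 UMI and in 14.7% of those without, while in Fosl2F/F 1 the shares were 55.5 and 58.1%. Both shares are from cells of unequal depth, and Rgs2 was present in 62.6 to 93.4% of these cells.

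**Figure D3:**
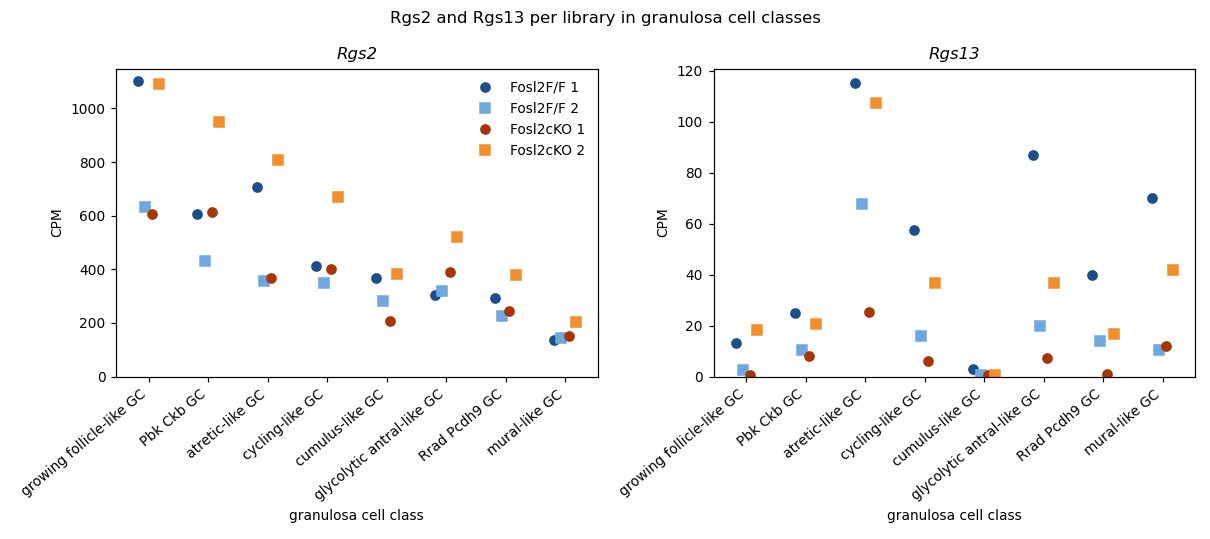
Rgs2 (left) and Rgs13 (right) in the 8 granulosa cell classes, with 1 point per library (CPM, axis from 0). For Rgs13 the points of Fosl2F/F 1 and Fosl2cKO 2 lie above those of the other 2 libraries in the 6 classes tested, for example at 87.1 and 36.7 against 20.01 and 7.26 CPM in glycolytic antral-like GCs.

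Rgs5, the usual transcript marker of pericytes, had the sharpest pattern of these genes together with Rgs4. It stood in pericyte-like cells at 2240, 1397, 1111 and 2366 CPM in Fosl2F/F 1, Fosl2F/F 2, Fosl2cKO 1 and Fosl2cKO 2 (mean 1778 ± 619, n = 4), and in endothelial-like cells at 240, 176, 124 and 276 CPM. The 2 ranges did not overlap, and the means differed 8.71-fold. The next class with at least 20 cells in every library, smooth muscle-like cells, stood at 17.2 ± 14.8 CPM (10.6 CPM without Fosl2F/F 2). The class was named from 7 pericyte markers that do not include Rgs5, of which 6 were above 20 CPM. Their summed level was 1647, 1354, 1252 and 2172 CPM, with the libraries in the same order as for Rgs5, and their part in the spread of Rgs5 was not tested. Pericyte-like cells were 2.06 to 3.05% of the cells and held 69.3 to 84.5% of Rgs5 UMIs. After thinning, 40.7 to 74.2% of pericyte-like cells, 4.88 to 9.82% of endothelial-like cells and 0 to 1.01% of cumulus-like GCs had a Rgs5 UMI (52.1 to 75.0%, 7.69 to 12.4% and 1.59 to 1.99% before). In endothelial-like cells the same pericyte markers summed to 84.0 to 192 CPM.

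Rgs4 gave fewer UMIs than Rgs5 in the same cells, with 383 to 517 UMIs in a whole library. Its level in pericyte-like cells was 208 CPM in Fosl2F/F 1, 144 in Fosl2F/F 2, 227 in Fosl2cKO 1 and 199 in Fosl2cKO 2 (mean 195 ± 35.7, n = 4). Endothelial-like cells, at 39.6, 12.02, 16.5 and 12.2 CPM, were the only other class whose mean reached 20 CPM, and their range lay below that of pericyte-like cells. Smooth muscle-like cells, which share the contractile genes of pericytes, stood at 1.30 CPM. Rgs4 was found more often in the pericyte-like cells that also had Rgs5 in each library. In Fosl2F/F 1 a Rgs4 UMI was in 54.0% of cells with a Rgs5 UMI and in 9.52% of those without. In Fosl2cKO 1 the shares were 59.6 and 28.9%, and both were computed without matching cells for depth. Notch3 (r = 0.94) and Colec11 (r = 0.91) ran most like Rgs4, and Olfr558 (r = 0.89), Higd1b (r = 0.88) and Sncg (r = 0.85) most like Rgs5. Notch3 and Higd1b were among the markers that named the class.

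Rgs6 and Rgs7 met in the Hsd17b7 Runx2 cells, a class that scored highest for mural granulosa markers and next for luteal markers and was left without a cell type name. Rgs7 stood there at 0 CPM in Fosl2F/F 1, 115 in Fosl2F/F 2, 169 in Fosl2cKO 1 and 296 in Fosl2cKO 2 (mean 145 ± 123, n = 4). Rgs6 stood at 0, 76.4, 14.2 and 339 CPM in the same order (mean 107 ± 158), with the lowest and the highest of the levels above 0 both in libraries labelled Fosl2cKO. In Fosl2F/F 1 neither gene had a UMI among 183966 UMIs of the class, which allows up to 16.3 CPM (3 counts, counting error only).

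The cells of Fosl2F/F 1 in that class were unlike the others in genes besides these. They had a median depth of 1496 UMIs against 8345 to 15590 in the other libraries, and 2457 CPM of Akr1c18, a luteal gene of progesterone breakdown, against 0.176 to 4.97 CPM. Their Runx2 (571 CPM) and Lhcgr (234 CPM, the LH receptor gene) were below the 1573 to 2831 and 529 to 2434 CPM of the other libraries, and the 5 luteal markers summed to 11008 CPM against 842 to 2980. Without Fosl2F/F 1, Rgs7 remained at 115 to 296 CPM, above its next classes, while Rgs6 at 14.2 to 339 CPM spanned the levels of pericyte-like (75.9 ± 25.1), theca-like (61.7 ± 42.5) and smooth muscle-like cells (53.8 ± 14.9). The rank of Rgs6 there rested on Fosl2cKO 2, without which its mean was 30.2 ± 40.6 CPM (n = 3), the fourth of the 29 classes, below pericyte-like (84.7), smooth muscle-like (60.3) and theca-like cells (59.5). Rgs7 kept its highest mean in these cells without any 1 of the 4 libraries (94.5 to 193 CPM).

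**Figure D4:**
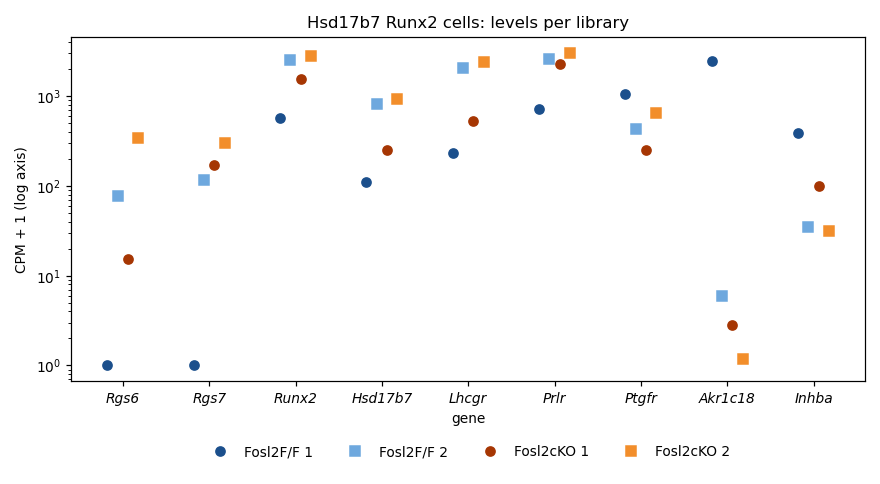
Levels (CPM + 1, log axis) of Rgs6, Rgs7 and 7 genes that describe the class in the Hsd17b7 Runx2 cells, with 1 point per library. Fosl2F/F 1 has no UMI of Rgs6 or Rgs7 and the highest Akr1c18 (2457 CPM), and Fosl2cKO 2 has the highest Rgs6 (339 CPM).

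Rgs7 was otherwise a narrow transcript. Clec3b stromal-like cells had 63.0, 79.3, 55.9 and 98.0 CPM (mean 74.1 ± 18.7), on 6 to 47 UMIs. Luteal-like cells had 9.35 CPM in Fosl2F/F 1, 12.9 in Fosl2F/F 2, 72.7 in Fosl2cKO 1 and 81.9 in Fosl2cKO 2, but with 15 cells in the smallest library they were not tested. Lymphatic endothelial-like cells came next at 8.01 CPM, below both. In Fosl2F/F 2 and both libraries labelled Fosl2cKO, Hsd17b7 Runx2 cells held 75.1 to 82.6% of Rgs7 UMIs. After thinning, up to 32.4% of these cells and 0.229 to 1.46% of cumulus-like GCs had a Rgs7 UMI (up to 71.3% and 2.56 to 4.84% before). The genes most like Rgs7 were Ltbp1 (r = 0.83), which holds latent TGF-β in the matrix, Pcdh11x (r = 0.78) and Ube2ql1 (r = 0.78).

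Rgs6 was the more evenly spread of the R7 pair. In pericyte-like cells it stood at 77.2, 67.4, 109 and 49.5 CPM, in theca-like cells at 25.7, 119, 33.9 and 68.3 CPM, and in smooth muscle-like cells at 51.7, 69.4, 59.8 and 34.4 CPM. These 3 ranges overlapped, and groups overlapped in each. After thinning, 7.73 to 14.9% of pericyte-like cells and 0.229 to 0.580% of cumulus-like GCs had a Rgs6 UMI (12.1 to 29.2% and 1.28 to 2.28% before). In single Hsd17b7 Runx2 cells, Rgs6 was found in 63.0% of cells with a Rgs7 UMI and 36.5% of those without in Fosl2cKO 2, and in 39.9 and 21.96% in Fosl2F/F 2. In Fosl2cKO 1, where Rgs7 was in 61.8% of cells, Rgs6 was in only 6.62%. The gene most like Rgs6 was Gm17501 (r = 0.76), followed by Ppp1r14a (r = 0.69), an inhibitor of myosin phosphatase, and Gnao1 (r = 0.69), which encodes a Go α subunit and was highest in theca-like cells (97.2 CPM).

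Gnb5, the partner of the R7 proteins, was named outside the rule on genes and stood at 40.8 to 54.4 CPM in Hsd17b7 Runx2 cells, with Fosl2F/F 1 highest (up to 51.5 CPM without it). Its highest means were in glycolytic antral-like (76.9 CPM) and mural-like GCs (75.7 CPM). Rgs7bp, which anchors R7 complexes at the membrane, stood at only 2.87 to 5.46 CPM in Hsd17b7 Runx2 cells and was highest in lymphatic endothelial-like cells (179 CPM). Of 37 genes for G protein subunits and partners, 31 reached 20 CPM in at least 1 class. The highest of them in the members' leading classes were the γ subunit gene Gng5 in growing follicle-like GCs (410 to 504 CPM), atretic-like GCs (390 to 549 CPM) and Hsd17b7 Runx2 cells (423 to 1093 CPM, or up to 635 CPM without Fosl2F/F 1), the Gs α subunit gene Gnas in pericyte-like cells (297 to 640 CPM) and the β subunit gene Gnb2 in natural killer-like cells (258 to 495 CPM). Among 22 other genes with an RGS domain, 16 reached 20 CPM. Grk5, a receptor kinase, was highest among them in pericyte-like (326 to 461 CPM) and natural killer-like cells (133 to 158 CPM), Rgs10 in Hsd17b7 Runx2 cells (123 to 166 CPM), and Axin1, a scaffold of Wnt signalling, in growing follicle-like (50.7 to 61.6 CPM) and atretic-like GCs (48.9 to 65.3 CPM).

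The condition was then compared within classes, to ask whether any member differed between Fosl2F/F and the libraries labelled Fosl2cKO. UMIs were summed per class and library and tested with edgeR's quasi-likelihood test in 25 classes with at least 20 cells in every library, and the threshold was an adjusted p under 0.1 together with a log2 fold change over 0.25 in size. Of 175 pairs of a member and a class, 87 passed the filter on low counts and 0 passed edgeR's test. In edgeR 11 of the 87 had an unadjusted p under 0.05, of which 4 were of Rgs6 and 0 of Rgs13. Of all gene and class pairs 5.41% did. The 2 shares are not on an equal footing, since the members were chosen from these data and their pairs share the same libraries. DESeq2 called 1 of the 87 (Rgs6 in mural-like GCs) and 0.358% of all pairs. Over all genes and classes, 194 of 247726 pairs passed in edgeR (0.0783%). With 2 libraries a group, the test found 1.0 to 23.5% of genes simulated with a 2-fold change in the members' leading classes and 76.5 to 95.0% of those with an 8-fold change. Differences of 2-fold were therefore mostly not detectable, and folds between these 2 settings were not simulated.

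In the leading classes, edgeR gave log2 fold changes (libraries labelled Fosl2cKO over Fosl2F/F) of −0.46 for Rgs1 (SE 0.25, adjusted p = 0.584), −0.12 for Rgs2 (SE 0.37, adjusted p = 0.998) and −0.56 for Rgs13 (SE 0.61, adjusted p = 0.932). For the vascular pair in pericyte-like cells they were 0.28 for Rgs4 (SE 0.28, adjusted p = 0.999) and −0.09 for Rgs5 (SE 0.37, adjusted p = 0.999). In Hsd17b7 Runx2 cells they were 1.68 for Rgs6 (SE 1.22, adjusted p = 0.867) and 1.6 for Rgs7 (SE 0.88, adjusted p = 0.851). None passed. The fold of Rgs6 turned to −1.85 without Fosl2cKO 2, and without Fosl2F/F 1 the folds were 1.03 (SE 1.66) for Rgs6 and 0.86 (SE 0.46) for Rgs7, neither past the threshold. The fold of Rgs6 was 2.69 (SE 0.78) without Fosl2cKO 1, and it passed in edgeR with no gene filter (adjusted p = 0.0787), each time with Fosl2F/F 1 at 0 UMIs in the fit. With the replicate number as a block, which gives no known pairing, Rgs6 (2.17, adjusted p = 0.0715) and Rgs7 (2.30, adjusted p = 0.0141) both passed in edgeR, again with Fosl2F/F 1 at 0 UMIs. In other fits with all libraries, adjusted p reached 0.9997 for Rgs6 (edgeR, crossed numbers) and 0.998 for Rgs7 (DESeq2). The direction also turned for Rgs2 without Fosl2F/F 1 (0.40) and without Fosl2cKO 1 (0.26), for Rgs5 without the same libraries (0.29 and 0.32), and for Rgs13 without Fosl2cKO 1 (0.13).

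The lowest unadjusted p among the members was that of Rgs6 in mural-like GCs by edgeR. Rgs6 stood there at 23.7 and 14.99 CPM in the Fosl2F/F libraries, on 312 and 36 UMIs, and at 3.06 and 5.09 CPM in the libraries labelled Fosl2cKO, on 16 and 9 UMIs. Both libraries labelled Fosl2cKO were below both Fosl2F/F libraries. The log2 fold change was −2.45 (SE 0.41), with an adjusted p of 0.335 over the 11816 genes tested in the class by edgeR, so the difference did not pass, although DESeq2 on the same sums called it (adjusted p = 0.0175). Leaving out 1 library leaves a single library in its group, so only sizes are given for these fits. They ran from −2.76 (SE 0.49, without Fosl2cKO 2) to −2.01 (SE 0.54, without Fosl2F/F 1). Over the alternatives with all libraries, the adjusted p in edgeR ran from 8.73e-06 (no gene filter) to 0.523 (finer clusters). The sum of the 6 mural GC markers, all above 20 CPM, was also lower there, at 9128 and 5772 CPM in the Fosl2F/F libraries against 4733 and 5252 CPM. Most of the sum was Inhba, whose groups overlapped (5887 and 3882 against 3115 and 3972 CPM), as did those of Prlr, Cyp19a1 and Nppc. Lhcgr and Pappa were lower without overlap, and the part of these markers in the difference was not tested. Theca markers, whose cells also hold Rgs6, summed to 1378 and 988 against 1108 and 578 CPM, with 4 of 6 above 20 CPM and Insl3 at 0. This list includes Cyp11a1, a leading gene of the mural-like class itself, so its sum does not measure theca RNA there. The part of theca RNA in the difference was not tested.

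Rgs6 was also below the Fosl2F/F libraries in both libraries labelled Fosl2cKO in glycolytic antral-like GCs (6.69 and 4.06 against 2.68 and 1.63 CPM), cycling-like GCs (4.44 and 2.67 against 2.01 and 1.81 CPM) and endothelial-like cells (10.6 and 8.77 against 2.48 and 2.03 CPM). That made 4 of the 14 classes in which it was tested, and none of the 14 ran in the opposite direction without overlap. Luteal-like cells, which were not tested, did, at 8.15 and 3.99 against 23.4 and 107 CPM on 9 to 64 UMIs. Over all members, 14 of 87 pairs were lower without overlap and 11 were higher, against 13.4% and 20.2% of all gene and class pairs. None of these 4 passed the test, and the lowest adjusted p of any member in edgeR was 0.294, for Rgs6 in endothelial-like cells on 5 to 35 UMIs per library.

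Among the other pairs, Rgs1 in dendritic-like cells stood at 1004 CPM in Fosl2F/F 1 and 906 in Fosl2F/F 2 and at 484 in Fosl2cKO 1 and 625 in Fosl2cKO 2, without overlap (log2 fold change −0.89, SE 0.25, adjusted p = 0.629 in edgeR). With 1 library left out, and so a single library in its group, the fold ran from −1.10 (SE 0.45, without Fosl2cKO 2) to −0.69 (SE 0.43, without Fosl2cKO 1). Over the alternatives with all libraries, the adjusted p ran from 0.170 (edgeR, crossed numbers) to 0.776 (DESeq2). Macrophage markers in the same class moved alike (994 and 926 against 433 and 598 CPM in sum over 7 genes, 6 of them above 20 CPM), and their part in it was not tested. Rgs2 in glycolytic antral-like GCs stood at 306 and 318 against 390 and 521 CPM (log2 fold change 0.50, SE 0.19, adjusted p = 0.552 in edgeR). Rgs7 in atretic-like GCs stood at 5.83 and 2.55 against 11.8 and 8.79 CPM (log2 fold change 1.08, SE 0.45, adjusted p = 0.912 in edgeR). None of the 3 passed with all libraries. Lower without overlap were Rgs4 in Asb4 Enpep cells (8.90 and 6.23 against 4.25 and 2.65 CPM) and Rgs5 in Hsd17b7 Runx2 cells. Rgs5 stood there at 5.44 and 3.34 against 0.756 and 0.705 CPM, on 1 to 43 UMIs per library, and neither pair passed.

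**Figure D5:**
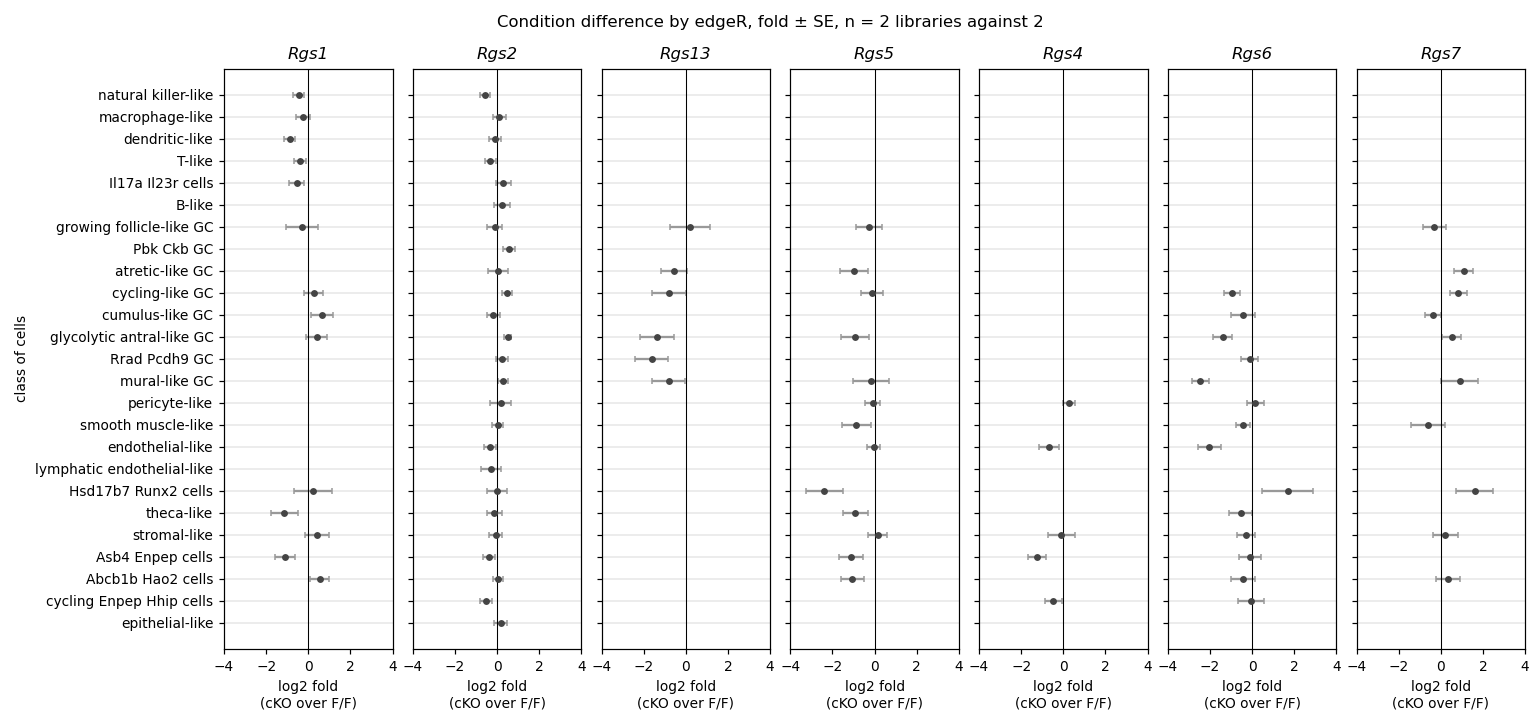
Log2 fold change (libraries labelled Fosl2cKO over Fosl2F/F, ± SE, edgeR, 2 libraries against 2) of each gene in each class where it passed the filter on low counts. Most points lie within 1 unit of 0, and Rgs6 reaches −2.45 in mural-like GCs and 1.68 in Hsd17b7 Runx2 cells. The lowest fold of Rgs5 is −2.39 and that of Rgs13 is −1.63, and no point passed the test.

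Whether the condition acted differently on a member in its 2 highest classes out of the 25 was asked with a class by condition term in edgeR. For Rgs7 the lower of the pair, lymphatic endothelial-like cells, held 0 to 12 UMIs per library, too few to pass the filter there alone, so that this term says little. None of the 7 terms passed (2 at an unadjusted p under 0.05), against 0.2% of all genes tested in these pairs of classes. The lowest adjusted p in edgeR was that of Rgs2 between growing follicle-like and Pbk Ckb GCs, a difference of log2 fold changes of −0.85 (SE 0.34, adjusted p = 0.312). In this pair of classes 124 of 11215 genes passed. Leaving out 1 library leaves a single library in its group, so only the sizes of these terms are given. Without Fosl2cKO 2 that of Rgs2 was −1.11 (SE 0.26). Without Fosl2F/F 2 that of Rgs13 between atretic-like and glycolytic antral-like GCs was 1.22 (SE 0.26). Without Fosl2cKO 1 the term of Rgs6 between Hsd17b7 Runx2 and pericyte-like cells was 3.47 (SE 0.74), whereas it was negative without Fosl2cKO 2 (−2.33) and without Fosl2F/F 1 (−0.39).

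Summed over all cells of a library, which mixes how many cells of a type there were with how much RNA each held, no member passed in edgeR (0 at an unadjusted p under 0.05, and 0 by DESeq2), and 0.00492% of the 20308 genes tested did. Rgs13 stood at 44.2, 5.96, 3.80 and 19.7 CPM in Fosl2F/F 1, Fosl2F/F 2, Fosl2cKO 1 and Fosl2cKO 2 (log2 fold change −1.21, SE 1.03), and Rgs7 at 2.46, 17.1, 13.4 and 19.98 CPM (0.74, SE 0.75). Groups overlapped for both. Rgs1, at 30.6, 26.4, 45.4 and 31.9 CPM, was the only member of the 7 whose libraries labelled Fosl2cKO both stood above the Fosl2F/F libraries (0.36, SE 0.24, adjusted p = 0.999), which held for 19.1% of all genes tested.

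The other genes of the pathway gave the same count of calls. In the 25 classes, 0 of 285 pairs of an RGS-domain gene and a class passed edgeR's test in either direction (5 or 1.75% at an unadjusted p under 0.05, where 5.41% of all pairs were, and 0.0783% of all pairs passed), with class medians of the log2 fold change from −0.05 to 0.94 beside −0.03 to 0.07 over all genes tested. The highest of these medians, in Il17a Il23r cells, rests on 2 genes. For G protein subunits and partners, 0 of 594 pairs passed (50 or 8.42% at an unadjusted p under 0.05), with class medians from −0.38 to 0.36.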

How the data were processed

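For each of the 4 libraries the authors deposited UMI counts per gene and barcode, whole numbers that were not normalized, from reads that CellRanger aligned to GRCm38. The header of the matrices names another CellRanger version than the methods of the study, and whether the CellBender correction for free RNA that those methods describe entered the deposited counts is not given in the sources used here. The submitters' processing notes also name Seurat 4.1.0, which did not alter these counts.

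Barcodes were retained from 500 detected genes and above 1000 UMIs, if mitochondrial UMIs were below 10% and hemoglobin UMIs below 0.1% (107944564, 104303269, 111314200 and 105152859 UMIs in Fosl2F/F 1, Fosl2F/F 2, Fosl2cKO 1 and Fosl2cKO 2). Doublets were removed by Scrublet score (scanpy 1.11.5) at 0.8% per 1000 cells, which took out 614, 4723, 412 and 450 cells. Libraries were normalized with sctransform 0.4.2, integrated with Seurat 5.3.0 on 3000 features without Rgs genes and clustered at a resolution of 0.8, and GC-like and immune cells again at 0.5 (lymphoid cells alone had been planned). Names ending in "like" come from marker lists, other classes carry their leading genes, and these rebuilt names may differ from those of the study.

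UMIs summed per class and library were tested with edgeR 4.0.16 (R 4.3.3, filterByExpr, TMM, glmQLFit and glmQLFTest, Benjamini-Hochberg over the genes of a class), with the library as replicate, and the code was tested on simulated data. Shares of cells were computed after thinning each cell to 2000 UMIs, with shallower cells left out. Alternatives were another normalization, DESeq2 1.42.0, other filters, thresholds, doublet rates, finer clusters, the replicate number as a block and leaving out each library, for mean levels by class a choice made after seeing the data. The members and gene lists were chosen with earlier results of these data known. Genes named besides the members were the highest of each list in a member's leading class (the tested class with its highest mean) and the 3 genes most like a member over classes with at least 20 CPM in 1 class. A gene that this rule names is not reported here. Genes that describe the Hsd17b7 Runx2 cells were picked after their values were seen.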

Additional observations from a re-analysis of the deposited data

How the results depend on the processing

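No member passed in any class in edgeR as reported (0 of 87 pairs). The count was also 0 of 87 with DESeq2 size factors and at an adjusted p under 0.05. It was 0 of 76 with cells over 2000 UMIs, 0 of 79 with 2 times the doublets removed and 0 of 86 with finer clusters. DESeq2 called 1 pair of 87 (Rgs6 in mural-like GCs). With no gene filter 4 of 163 were called in edgeR. They were Rgs6 in Hsd17b7 Runx2 cells (1.66), in mural-like GCs and in endothelial-like cells, and Rgs13 in cycling-like GCs. Leaving out 1 library gave 0 to 5 calls, namely Rgs1 in dendritic-like cells without Fosl2F/F 2, Rgs6 in Hsd17b7 Runx2 cells and Rgs2 in cycling-like GCs without Fosl2cKO 1, and 5 pairs without Fosl2cKO 2 (Rgs13 in 3 GC classes, Rgs6 in mural-like GCs and Rgs5 in smooth muscle-like cells). Replicate numbers give no known pairing of animals. With the replicate block 2 pairs were called, Rgs6 (2.17) and Rgs7 (2.30) in Hsd17b7 Runx2 cells, with Fosl2F/F 1 at 0 UMIs of both in the fit, and the whole-library fold of Rgs6 was −0.093. Same-numbered libraries deviated apart in most GC classes (correlations down to −0.28), and with the numbers crossed, chosen after seeing the data, 5 pairs were called. Over all gene and class pairs, 0.0783% were called as reported, 0.358% by DESeq2, 0.874% with no gene filter and 0.0432% at 0.05. The share was 0.283% with the block and 1.25% crossed (87 member pairs tested in each). With 2 times the doublets removed it was 0.335%, with cells over 2000 UMIs 0.0700% and with finer clusters 0.0792%.

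Leaving out 1 library turned the direction of several folds. In leading classes the log2 fold ran from −0.65 to 0.40 for Rgs2, −0.66 to 0.32 for Rgs5, −1.85 to 12.51 for Rgs6 and −1.96 to 0.13 for Rgs13, where the highest value of Rgs6 comes from Fosl2F/F 1 alone at 0 UMIs and is no estimate. In whole libraries it ran from −0.32 to 0.58 for Rgs2, −0.28 to 0.053 for Rgs4, −0.68 to 0.15 for Rgs5, −1.29 to 0.90 for Rgs6, −0.035 to 2.64 for Rgs7 and −2.85 to 0.98 for Rgs13. The class by condition difference ran from −0.50 to 0.0080 for Rgs1, −1.11 to −0.59 for Rgs2, −0.071 to 0.15 for Rgs5, −2.33 to 10.6 for Rgs6 and −0.092 to 1.22 for Rgs13. Removing 2 times the doublets raised the share of Rgs5 UMIs in pericyte-like cells from 76.6 to 84.5%, and the other 48 shares recomputed moved by less than 1 SD. Leaving out 1 of 4 libraries cannot move their mean by 1 SD, so this rule says nothing about stability there. The share of Rgs7 in Hsd17b7 Runx2 cells, for example, was 59.4 ± 39.7%, from 0% in Fosl2F/F 1 and 75.1 to 82.6% in the others. The causes of these moves were not tested. No value was had for Hsd17b7 Runx2 cells over 2000 UMIs, where Fosl2F/F 1 kept 19 cells. Depth limits Rgs4, with 383 to 517 UMIs a library, and Rgs6 in GC classes.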

Other observations

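Other RGS-domain genes had their highest means in further classes, some of which also held much of a member (1238 CPM of Rgs1 in macrophage-like cells, 755 CPM of Rgs1 in dendritic-like cells and 436 CPM of Rgs2 in oocyte-like cells). Rgs17 had its highest mean in oocyte-like cells, at 272 CPM in Fosl2F/F 1, 192 in Fosl2F/F 2, 114 in Fosl2cKO 1 and 123 in Fosl2cKO 2, against 14.7 CPM in pericyte-like cells, the class next in order. These oocyte-like cells numbered 17 to 60 per library and were not tested. Rgs10 was highest in macrophage-like cells (316 to 363 CPM), Rgs12 in luteal-like cells (131 to 243 CPM) and Rgs16 in lymphatic endothelial-like cells (88.5 to 350 CPM), next to pericyte-like cells (145 CPM). Rgs18, the neighbour of Rgs1 beyond Rgs21 on chromosome 1, was highest in dendritic-like cells (23.4 to 42.7 CPM), and Rgs21 had 1 UMI in all 4 libraries. These genes were picked after their values were seen.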
